A study of Mus musculus with 9 samples.

Results

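The genes described here encode the nuclear part of the mitochondrial respiratory chain and ATP synthase. A gene was taken as a member when a probe set carried its symbol alone and the symbol began with Ndufa, Ndufb, Ndufc, Ndufs, Ndufv, Uqcr, Atp5, Cox4, Cox5, Cox6, Cox7 or Cox8, or was Sdha, Sdhb, Sdhc or Sdhd. The rule found 89 of the 19938 genes with a single-symbol probe set, and no expression level was used to choose them. They comprise 34 subunits of complex I, 4 of complex II, 8 of complex III, 17 of complex IV (Ndufa4 was placed there) and 17 of ATP synthase. A further 9 members are caught by the prefixes but are not subunits: Ndufaf1 to Ndufaf7, which assemble complex I, Cox7a2l, a factor of respiratory supercomplexes, and Ndufa4l2.

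Complex I oxidises NADH and complex II oxidises succinate, and both pass electrons through ubiquinone to complex III, then cytochrome c, then complex IV, which reduces oxygen. Complexes I, III and IV pump protons across the inner mitochondrial membrane, and ATP synthase uses the gradient to make ATP. In microglia, the macrophages that live in the brain, oxidative phosphorylation is known as the main energy source of resting cells, and inflammatory activation is known to move macrophages towards glycolysis.

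Expression was measured on 9 microarrays, 1 per mouse. All mice were 8.5 months old, carried 5XFAD, human transgenes that drive amyloid deposition in the brain, and had no mouse TREM2, the microglial receptor that senses lipids. The R47H group of 3 mice expressed the human TREM2 variant R47H, a variant that raises the risk of Alzheimer's disease in people. The CV group of 3 expressed the common variant of human TREM2, and the KO group of 3 expressed no TREM2 of either species. In every group mouse 1 was female and mice 2 and 3 were male, and the labels name every mouse separately. The labels do not say how the human gene was carried or what promoter drove it. Cells were sorted as CD45+ CD11b+ from dissociated brain, and 2 ng of total RNA was labelled.

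Of the 14 microglial markers, 13 had a single-symbol probe set and all 13 lay above the floor for testing, while none of 11 neuronal markers did. The floor was set at 5.31 on the log2 scale, the median over probe sets. The mouse Trem2 probe set, counted among the 13 here and below, read 7.05 to 7.31 over the 9 arrays. It cannot check the genotype labels, since all mice lack mouse TREM2. Xist lay at 9.38 to 9.79 in the 3 females and 3.57 to 3.97 in the 6 males, as labelled. Neutrophil markers differed between mice: their summed level (log2, 13 of 13 markers measured, with Cxcr2, Elane and Mpo below the floor) was 11.60 to 12.77 in R47H, 13.65 to 14.30 in CV and 11.07 to 14.28 in KO. Oligodendrocyte markers (10 of 11 measured, with Ugt8a and Opalin below the floor) summed to 10.50 to 10.90 in R47H, 9.37 to 9.70 in CV and 9.44 to 10.22 in KO. Astrocyte markers (11 of 11 measured, with Gfap, Aqp4, Gja1, Aldh1l1 and Sox9 below the floor) summed to 11.86 to 12.15 in R47H, 11.52 to 11.76 in CV and 11.77 to 11.99 in KO. Glul (mean 11.54) weighs most in this sum, and the next marker is Slc1a3 (mean 7.95). Of the 6 tested astrocyte markers, 5 were higher in R47H than in KO (median log2 difference 0.72, smallest limma adjusted p 0.144). For 4 of the 6, every R47H mouse lay above every KO mouse, beside 3.84% of all genes tested. In such bulk samples, fewer cells of a type and less RNA per cell cannot be told apart.

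Nuclear genes of the respiratory chain are textbook targets of NRF-1, a transcription factor that binds GC-rich palindromes near start sites. RefSeq promoters (GRCm38.p6, 250 bases before to 50 after the start) were at hand for 73 of the 89 members, and were searched on both strands for the palindrome-like motif GCGCA, any base, GCGC. The motif stood in 18 of the 73 members (24.7%), beside 11.8% of 8676 tested genes and 5.19% of all 27025 genes with a promoter. The median GC content was 58.0% in member promoters, beside 60.7% in those of the tested genes and 52.7% in all. By complex, the motif stood in 6 of 31 members of complex I, 2 of 3 of complex II, 1 of 5 of complex III, 1 of 12 of complex IV and 6 of 15 of ATP synthase. The YY1 motif AANATGGC stood in 24.7% of members and 10.4% of tested genes, and the ETS motif CCGGAAG, bound by NRF-2 (GABP), in 24.7% and 20.1%. A match describes letters and not binding. The following 4 promoters, each with the NRF-1 motif, belong to members of 4 complexes whose values are given below. Most members with a promoter lacked the motif, among them Ndufa1 and Cox7a2, whose values are also given. Capitals mark the NRF-1 motif in either orientation, as it reads on the gene's strand.
Ndufa5, chr6:24527641-24527940, minus strand: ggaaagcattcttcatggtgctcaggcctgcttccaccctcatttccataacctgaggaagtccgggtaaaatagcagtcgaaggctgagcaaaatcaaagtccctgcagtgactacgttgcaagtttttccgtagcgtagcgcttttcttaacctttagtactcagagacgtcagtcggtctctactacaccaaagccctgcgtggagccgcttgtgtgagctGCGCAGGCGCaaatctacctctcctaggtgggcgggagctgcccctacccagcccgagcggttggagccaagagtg
Sdha, chr13:74350191-74350490, minus strand: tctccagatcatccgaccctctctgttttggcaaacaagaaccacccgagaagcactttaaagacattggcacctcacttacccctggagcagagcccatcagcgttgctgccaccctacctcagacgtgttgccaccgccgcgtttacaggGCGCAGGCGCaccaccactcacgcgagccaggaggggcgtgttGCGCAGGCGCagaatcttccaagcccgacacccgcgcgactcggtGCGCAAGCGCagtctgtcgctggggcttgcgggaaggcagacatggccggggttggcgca
Cox6a1, chr5:115348909-115349208, minus strand: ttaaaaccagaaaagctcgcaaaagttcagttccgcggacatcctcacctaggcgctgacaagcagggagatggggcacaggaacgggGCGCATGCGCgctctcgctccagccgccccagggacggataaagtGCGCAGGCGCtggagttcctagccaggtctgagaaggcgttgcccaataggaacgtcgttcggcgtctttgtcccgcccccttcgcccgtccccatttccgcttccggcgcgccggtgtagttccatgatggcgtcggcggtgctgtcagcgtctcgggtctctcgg
Atp5o, chr16:91931581-91931880, minus strand: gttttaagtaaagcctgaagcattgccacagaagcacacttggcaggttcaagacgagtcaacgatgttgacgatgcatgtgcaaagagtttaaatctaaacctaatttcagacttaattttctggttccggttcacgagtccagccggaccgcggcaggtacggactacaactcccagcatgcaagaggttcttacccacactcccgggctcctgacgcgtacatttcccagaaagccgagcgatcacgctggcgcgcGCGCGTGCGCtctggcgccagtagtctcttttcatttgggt

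Sdha held 3 copies of the motif in this window and Cox6a1 held 2. In Ndufa5 the copy began 26 bases before the start, and in Atp5o at base 9 after it.

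No respiratory chain gene passed the test for a difference between genotypes. Of the 89 members, 84 were bright enough to test among 10795 genes, and 0 of the 84 were called in any comparison (limma with genotype and sex, Benjamini-Hochberg adjusted p under 0.05 over all genes tested). The same fits called 0.0834% of all genes tested for R47H minus KO, 1.21% for CV minus KO, 0.797% for R47H minus CV and 1.32% for any genotype difference by the F-test. The smallest adjusted p among members in limma was 0.608 for R47H minus KO, 0.216 for CV minus KO and 0.238 for R47H minus CV. At an unadjusted p under 0.05 there were 3 members for R47H minus KO (5.68% of all genes tested), 5 for CV minus KO (13.2%) and 5 for R47H minus CV (12.4%). These p-values rest on 3 mice a group, for which an exact permutation test cannot go below 0.1.

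The sizes that the data leave room for were bounded by 95% intervals of the fitted differences. For R47H minus KO, 81 of the 84 intervals lay within 0.5 on the log2 scale of 0, which is 1.41-fold, and the exceptions were Ndufb2, Cox6b2 and Atp5md. For CV minus KO, 83 of 84 did so, all but Atp5md. For R47H minus CV, 81 did so, all but Ndufs6, Cox6a2 and Cox6b2. All 84 intervals lay within 2-fold in each of the 3 comparisons. Within 0.25 on the log2 scale (1.19-fold) lay only 30, 30 and 33 intervals for the same 3 comparisons, so differences of that size were not resolved for most members.

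The median fitted difference over the 84 members was 0.048 on the log2 scale for R47H minus KO, with 60 members above 0, beside a median of -0.0011 and 49.6% of all genes tested above 0. For CV minus KO it was -0.0074 with 39 members above 0, beside -0.016 and 45% of all genes. For R47H minus CV it was 0.041 with 58 above 0, beside 0.010 and 53.4%. These comparisons share mice, so they are not independent of each other. Members also varied together between mice. The mean pairwise correlation of their deviations from group means was 0.44, beside 0.0067 for all genes tested. Counts of members above 0, here and below, are therefore not counts of independent genes. Single mice moved the medians: R47H minus KO was 0.0081 without R47H mouse 3 (47 above 0), 0.0098 without KO mouse 3 (45 above 0) and 0.083 without KO mouse 1 (68 above 0). CV minus KO was -0.055 without KO mouse 3 (28 above 0) and 0.035 without CV mouse 3 (53 above 0). R47H minus CV was 0.00078 without R47H mouse 3 (42 above 0) and 0.091 without R47H mouse 1 (65 above 0). With the neutrophil score as a covariate, R47H minus CV had a median of -0.014 with 39 above 0, CV minus KO 0.030 with 51 above 0, and R47H minus KO 0.044 with 59 above 0. The 13 tested microglial markers had 11 above 0 for R47H minus CV (median 0.13), 11 below 0 for CV minus KO (median -0.13) and 7 below 0 for R47H minus KO (median -0.018), with 0 called. The part of the microglial, oligodendrocyte and astrocyte markers in these values was not tested.

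**Figure D1:**
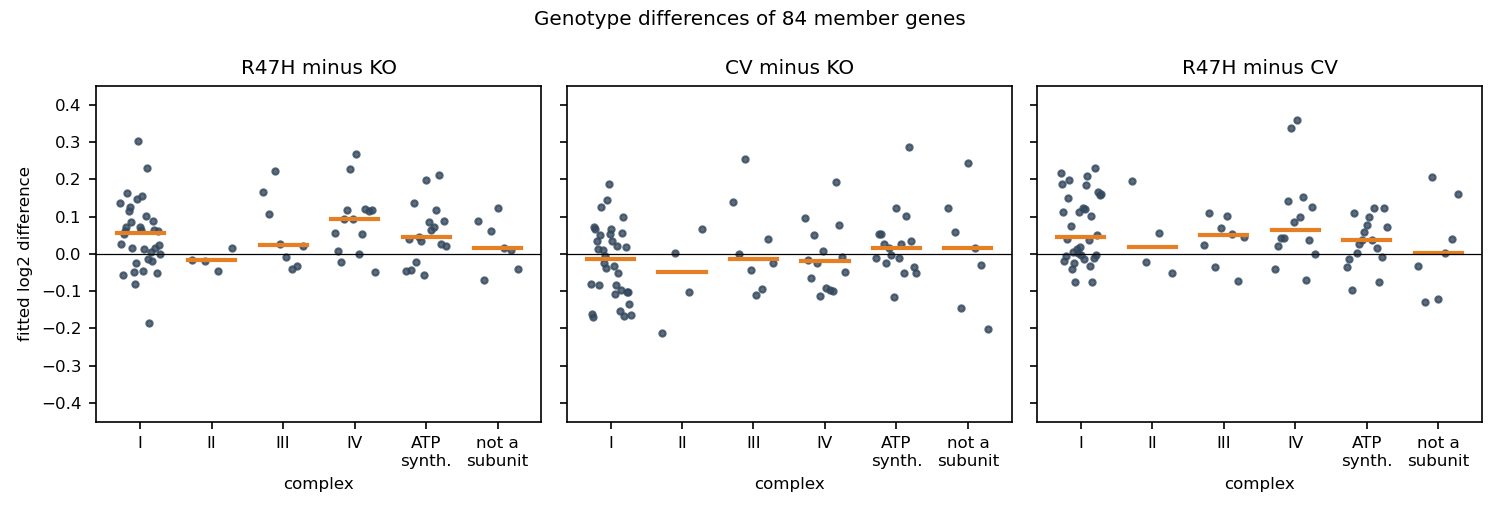
Fitted log2 differences of the 84 tested members by complex, in panels for R47H minus KO, CV minus KO and R47H minus CV. Each point is a gene and each orange bar the median of a complex. Points scatter on both sides of 0, most within 0.2, and the medians of complex IV lie at 0.095, -0.020 and 0.065.

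Complex I had 34 members, all tested, 28 of them accessory subunits and 6 of its catalytic core. For R47H minus KO 24 of 34 lay above 0 (median 0.057), for CV minus KO 16 (median -0.015) and for R47H minus CV 23 (median 0.045), and 0 were called in each. The core subunits belong to the arm whose flavin and iron-sulphur clusters take electrons from NADH. Of these 6 subunits, 5 lay below 0 for CV minus KO, with a median of -0.10. Their lowest was Ndufs1, the largest iron-sulphur subunit, whose fitted differences were -0.18 for R47H minus KO, -0.15 for CV minus KO and -0.03 for R47H minus CV.

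Ndufb2, an accessory subunit of the membrane arm, read 7.89, 7.69 and 7.95 in R47H mice 1 to 3, 7.79, 7.76 and 7.65 in CV mice, and 7.73, 7.56 and 7.33 in KO mice (log2 values). R47H and KO overlapped, and the lowest value was that of KO mouse 3. The difference was 0.30 ± 0.10 (SE) for R47H minus KO, or 1.23-fold, with adjusted p = 0.657 in limma, and 0.19 ± 0.10 for CV minus KO. That second difference was 0.10 without KO mouse 3 and 0.31 with the neutrophil score as a covariate. Ndufc1, another membrane-arm subunit, read 9.22, 8.92 and 9.11 in R47H, 8.94, 8.87 and 8.81 in CV, and 8.96, 8.79 and 8.80 in KO. R47H mouse 2 lay below a mouse of each other group. The difference was 0.23 ± 0.07 for R47H minus KO (limma adjusted p = 0.608) and 0.21 ± 0.07 for R47H minus CV (adjusted p = 0.293).

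Ndufa5, a subunit of the matrix arm whose promoter is printed above, read 8.33, 8.36 and 8.29 in R47H, 8.19, 8.11 and 8.09 in CV, and 8.25, 8.21 and 8.17 in KO. All R47H mice lay above all mice of both other groups. R47H minus CV was 0.20 ± 0.06 (limma adjusted p = 0.251) and R47H minus KO 0.11 ± 0.06 (adjusted p = 0.907). Ndufa1, an X-linked subunit needed to assemble the complex, read 10.29, 10.08 and 10.10 in R47H, 10.01, 9.97 and 9.84 in CV, and 10.08, 10.01 and 9.97 in KO. R47H lay above CV in every mouse and overlapped KO. The difference from CV was 0.22 ± 0.07 (limma adjusted p = 0.241), with a 95% interval of 0.07 to 0.37.

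Ndufv3, an accessory subunit beside the NADH-binding site, read 8.15, 7.96 and 8.06 in R47H, 7.87, 8.02 and 7.79 in CV, and 8.14, 8.05 and 7.97 in KO. CV mouse 2 fell among the KO values, and CV minus KO was -0.16 ± 0.08 (limma adjusted p = 0.458), -0.11 without CV mouse 1 and -0.25 without CV mouse 2. Ndufc2, a partner of Ndufc1, read 10.88, 10.83 and 11.01 in R47H, 10.94, 10.92 and 10.75 in CV, and 10.91, 11.01 and 10.85 in KO. The 3 groups overlapped throughout, and the 95% intervals of its differences ran from -0.25 to 0.23 over the 3 comparisons.

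Complex II, the succinate dehydrogenase that also serves the tricarboxylic acid cycle, had 4 members, all tested. Sdha, the flavoprotein that oxidises succinate and the gene with 3 NRF-1 motifs above, read 9.08, 8.91 and 8.91 in R47H, 8.91, 8.71 and 8.70 in CV, and 9.24, 8.80 and 8.91 in KO. Mouse 1 was the highest of each group, and CV mice 2 and 3 were the lowest of all. CV minus KO was -0.21 ± 0.07 (limma adjusted p = 0.256), a ratio of 0.864, and R47H minus CV was 0.19 ± 0.07 (adjusted p = 0.32). R47H minus KO was -0.016, and its sign turned without mouse 1 of either group, to 0.026 without the R47H female and 0.047 without the KO female.

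The membrane anchors of complex II showed no separation of genotypes. Sdhc read 9.93, 9.92 and 9.93 in R47H, 9.93, 10.01 and 9.67 in CV, and 10.13, 9.90 and 9.90 in KO. The R47H mice lay close together, inside the range of each other group. Sdhd, the second anchor, read 8.04, 7.89 and 7.96 in R47H, 8.26, 7.97 and 7.82 in CV, and 7.96, 7.96 and 7.92 in KO. The CV mice spanned the values of both other groups.

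Complex III had 8 members, all tested, of which 5 lay above 0 for R47H minus KO (median 0.024), 3 for CV minus KO (median -0.013) and 6 for R47H minus CV (median 0.050). Uqcrb, an accessory subunit next to a ubiquinone site, read 8.94, 8.62 and 8.72 in R47H, 8.73, 8.79 and 8.86 in CV, and 8.52, 8.47 and 8.62 in KO. Every CV mouse lay above every KO mouse, and R47H mouse 2 met KO mouse 3. CV minus KO was 0.26 ± 0.09 (limma adjusted p = 0.28) and R47H minus KO 0.22 ± 0.09 (adjusted p = 0.863). R47H minus KO was 0.11 without R47H mouse 1 and 0.12 in males alone, and CV minus KO was 0.15 with the neutrophil score as a covariate. Uqcrb lay opposite to the core proteins for CV minus KO: Uqcrc1 and Uqcrc2 were at -0.04 and -0.11, and Uqcrfs1, the Rieske iron-sulphur protein that carries the electrons, at -0.09.

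Uqcr10, a small accessory subunit, read 10.39, 10.22 and 10.33 in R47H, 10.39, 10.23 and 10.24 in CV, and 10.27, 10.21 and 9.97 in KO. The groups overlapped, with KO mouse 3 below the rest. Uqcrc2 read 9.01, 8.98 and 8.92 in R47H, 8.91, 8.87 and 8.82 in CV, and 9.23, 8.80 and 8.90 in KO. R47H lay just above CV in every mouse (0.10 ± 0.09, limma adjusted p = 0.685), while the KO mice spanned both. That difference was 0.049 without CV mouse 1, 0.066 without R47H mouse 2 and 0.15 without R47H mouse 1. Uqcrh, the hinge protein that joins cytochrome c1 to cytochrome c, read 11.26, 11.04 and 11.09 in R47H, 11.27, 11.22 and 11.11 in CV, and 11.31, 11.11 and 11.06 in KO, and the 3 groups overlapped.

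Complex IV had 17 members, of which 14 were tested. The untested members were Cox7b2 and Cox8c, known from testis, and Cox8b, known from heart and skeletal muscle, with means of 3.03, 4.96 and 4.92 over the 9 arrays, below the floor of 5.31. For R47H minus KO 12 of 14 lay above 0 (median 0.095), for CV minus KO 5 (median -0.020) and for R47H minus CV 11 (median 0.065). The 10 general nuclear subunits had medians of 0.095, -0.00085 and 0.043 in the same 3 comparisons. The 4 tested isoforms of muscle, lung or testis (Cox4i2, Cox6a2, Cox6b2 and Cox7a1) had medians of 0.14, -0.095 and 0.24.

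Cox6a1, the general isoform of subunit 6a, read 11.77, 11.75 and 11.72 in R47H, 11.64, 11.66 and 11.52 in CV, and 11.71, 11.63 and 11.55 in KO. All R47H mice lay above all CV and all KO mice by a narrow margin. R47H minus CV was 0.14 ± 0.07 (limma adjusted p = 0.449) and R47H minus KO 0.12 ± 0.07 (adjusted p = 0.907). With the neutrophil score as a covariate R47H minus CV was 0.086. Cox6a2, the isoform of heart and skeletal muscle, read 10.26, 9.47 and 9.64 in R47H, 9.64, 9.31 and 9.40 in CV, and 9.78, 9.50 and 9.41 in KO. The female was the highest of each group, and R47H mouse 1 stood above all other mice. R47H minus CV was 0.34 ± 0.10 (limma adjusted p = 0.238), or 1.26-fold, and 0.20 without R47H mouse 1.

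Cox6b2, the isoform of testis, had the largest fitted difference among members for R47H minus CV at 0.36 with means of 6.20 in R47H, 5.84 in CV and 5.94 in KO. The groups overlapped, and Cox6b2 is named after its values were seen. Cox7a2, the general isoform of subunit 7a, read 9.52, 9.46 and 9.56 in R47H, 9.57, 9.68 and 9.50 in CV, and 9.52, 9.39 and 9.28 in KO. CV minus KO was 0.19 ± 0.08 (limma adjusted p = 0.37), with KO mouse 1 above CV mouse 3. Cox6c read 11.10, 11.12 and 11.15 in R47H, 11.09, 10.98 and 11.00 in CV, and 11.15, 11.17 and 11.05 in KO. R47H lay above CV in every mouse by a fitted 0.10 ± 0.07 and overlapped KO. A second Cox6c probe set gave a mean difference of 0.11 for R47H minus CV. It gave 0.045 for CV minus KO, where the one used gave -0.097, and 0.16 for R47H minus KO, where the one used gave 0.0009. Cox6b1 read 12.10, 12.10 and 12.21 in R47H, 12.11, 12.09 and 11.95 in CV, and 12.14, 12.09 and 11.90 in KO, and the groups overlapped.

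**Figure D2:**
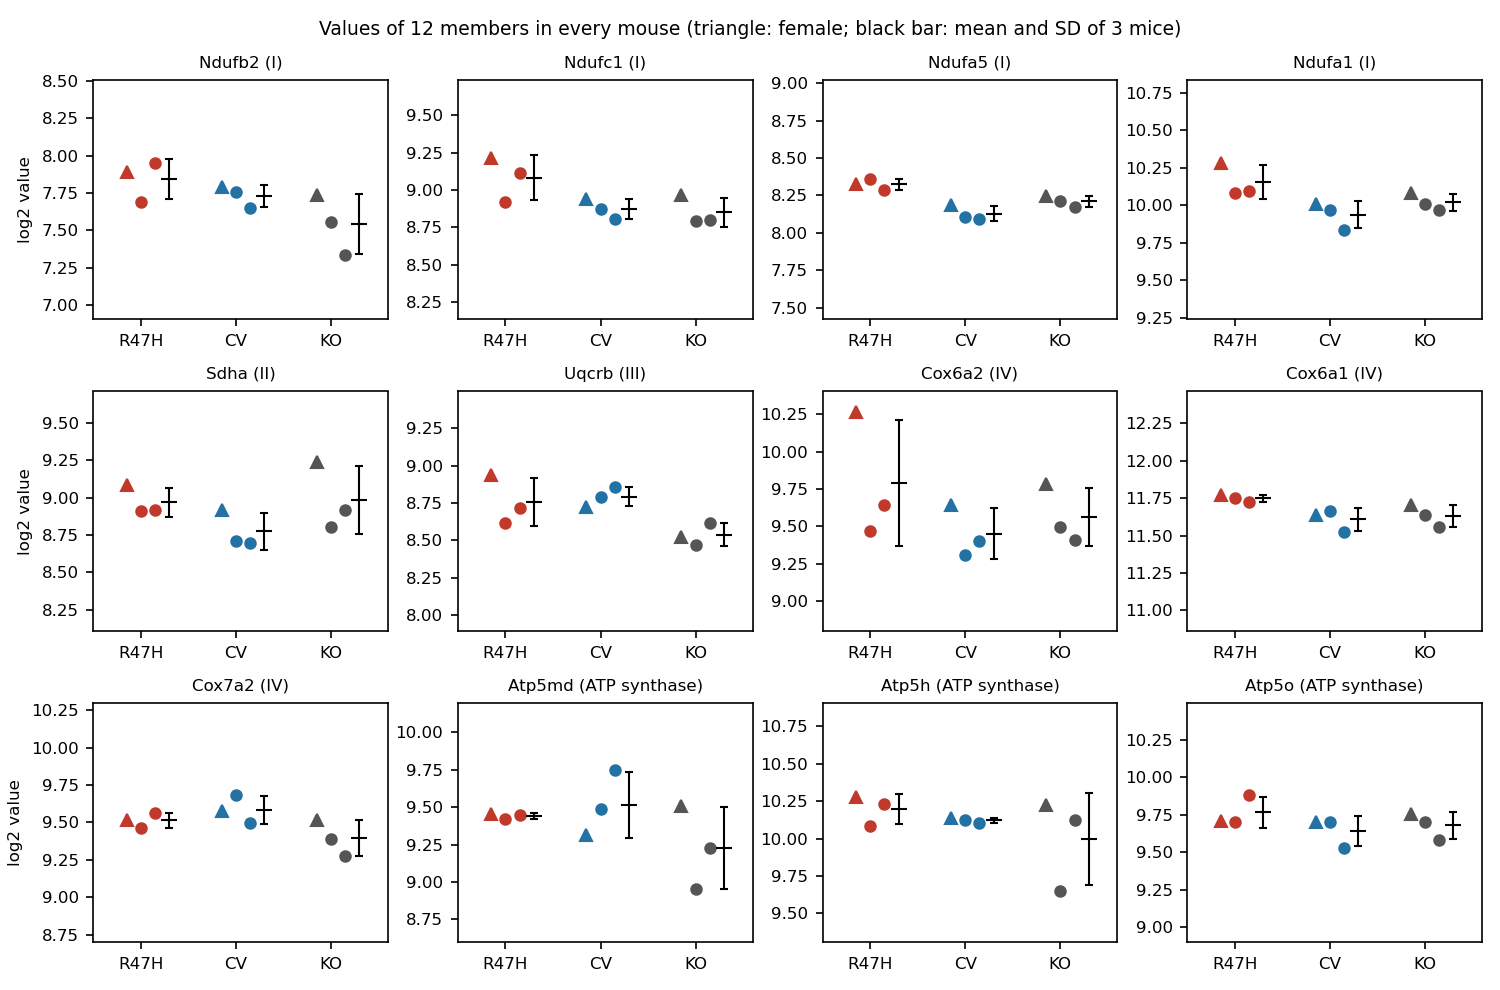
Log2 values of 12 members in every mouse, with the complex in each panel title and R47H, CV and KO from left to right. Triangles are females, circles males, and black bars the mean and SD of 3 mice; every panel has the same height on the log2 scale. In Ndufa5 and Cox6a1 the R47H points lie above all others, and in Cox6a2, Ndufc1 and Sdha the female is the highest of each group.

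ATP synthase had 17 members, all tested, of which 13 lay above 0 for R47H minus KO (median 0.044), 9 for CV minus KO (median 0.017) and 12 for R47H minus CV (median 0.038). The 4 peripheral stalk members, which hold the catalytic head still while the ring turns, lay above 0 in all 4 cases for R47H minus KO (median 0.086) and R47H minus CV (median 0.087), and in 1 case for CV minus KO. The 5 members of the head and central stalk had medians of -0.023, 0.027 and -0.013 for R47H minus KO, CV minus KO and R47H minus CV. None of these differences was called.

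Atp5h, subunit d of the peripheral stalk, read 10.28, 10.09 and 10.23 in R47H, 10.14, 10.13 and 10.10 in CV, and 10.22, 9.65 and 10.13 in KO. KO mouse 2 stood below the other 8 mice, and R47H minus KO was 0.20 ± 0.13 with all mice and 0.036 without KO mouse 2. Atp5o, which joins the peripheral stalk to the head, read 9.71, 9.70 and 9.88 in R47H, 9.70, 9.70 and 9.53 in CV, and 9.75, 9.70 and 9.58 in KO. R47H mouse 3 was the highest and the remaining mice overlapped. Its difference for R47H minus CV was 0.12 ± 0.09, with a 95% interval of -0.07 to 0.32. It was 0.051 without R47H mouse 3, 0.067 without CV mouse 3, 0.18 without R47H mouse 1 and 0.061 with the neutrophil score as a covariate.

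Atp5md, a small membrane subunit also known as DAPIT, read 9.46, 9.42 and 9.45 in R47H, 9.31, 9.49 and 9.75 in CV, and 9.50, 8.96 and 9.23 in KO. The R47H mice lay close together, while CV and KO mice each spread widely. CV minus KO was 0.29 ± 0.15 (limma adjusted p = 0.463) with a 95% interval of -0.05 to 0.63. It was 0.15 without KO mouse 2 or without CV mouse 3, 0.46 without CV mouse 1, 0.47 without KO mouse 1 and 0.53 in males alone. Atp5k, subunit e of the membrane part, read 9.91, 9.84 and 9.97 in R47H, 9.84, 9.84 and 9.68 in CV, and 9.99, 9.83 and 9.69 in KO. The groups overlapped, and R47H minus CV was 0.12 ± 0.09. It was 0.067 without R47H mouse 3, 0.080 without CV mouse 3 and 0.029 with the neutrophil score as a covariate.

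Atp5g3, a gene for the ring subunit c, read 9.72, 9.86 and 9.77 in R47H, 9.84, 9.74 and 9.58 in CV, and 9.93, 9.81 and 9.77 in KO. CV minus KO was -0.12 ± 0.08, with overlapping groups. It was -0.053 without CV mouse 3 and -0.077 with the neutrophil score as a covariate. Atp5e, the small epsilon subunit of the central stalk, read 11.41, 11.25 and 11.39 in R47H, 11.37, 11.36 and 11.31 in CV, and 11.58, 11.35 and 11.20 in KO. The KO mice spanned both other groups.

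The members that are not subunits held 2 of the 5 genes below an unadjusted p of 0.05 for CV minus KO. Ndufaf3, which helps assemble the arm of complex I that docks ubiquinone, read 8.65, 8.39 and 8.37 in R47H, 8.57, 8.60 and 8.60 in CV, and 8.40, 8.33 and 8.32 in KO. Every CV mouse lay above every KO mouse, and the difference was 0.24 ± 0.08 (limma adjusted p = 0.216). Ndufaf7, a methyltransferase that modifies a core subunit of complex I, read 7.51, 7.32 and 7.43 in R47H, 7.28, 7.34 and 7.15 in CV, and 7.53, 7.40 and 7.45 in KO. Every CV mouse lay below every KO mouse, at -0.20 ± 0.08 (limma adjusted p = 0.295). These 2 genes were chosen after their values were seen. Ndufaf6 and Ndufa4l2, with means of 4.92 and 4.82, were not tested.

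Groups without overlap were no more frequent among members than among all genes. For R47H minus KO 2 members were higher in every R47H mouse (Ndufa5 and Cox6a1) and 0 lower, beside 3.84% of all genes tested higher and 3.27% lower. For CV minus KO 2 were higher (Uqcrb and Ndufaf3) and 2 lower (Ndufs6 and Ndufaf7), beside 5.9% and 8.05%. For R47H minus CV 6 were higher (Ndufa1, Ndufa5, Ndufa10, Uqcrc2, Cox6a1 and Cox6c) and 0 lower, beside 8.74% and 6.17%.

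Mice of the same genotype differed in the level of these genes as a set. Complexes I to IV and ATP synthase lay on the same side of their 9-array means in every mouse but CV mouse 2 and KO mouse 2. In CV mouse 2 complexes II and IV were at -0.061 and -0.024 and the others above 0. In KO mouse 2 complex IV was at 0.015 and the others below 0. The mean deviation of the 84 members from their 9-array means was 0.088, -0.050 and 0.072 in R47H mice 1 to 3, 0.040, 0.0046 and -0.11 in CV mice, and 0.11, -0.043 and -0.11 in KO mice, on the log2 scale. Over all genes tested the same mean stayed between -0.023 and 0.018. Similar array medians (5.28 to 5.35) largely hold that mean near 0. Lists described below spread as well: oxidant defence from -0.13 to 0.16, mitochondrial carriers from -0.14 to 0.13 and fatty acid oxidation from -0.20 to 0.095. Narrower spans were those of assembly factors (-0.072 to 0.078), the tricarboxylic acid cycle (-0.059 to 0.091), regulators (-0.076 to 0.054) and other subunits and carriers (-0.051 to 0.066). The widest span of these lists was that of the 2 mitochondrially encoded subunits, from -0.36 in KO mouse 2 to 0.20 in CV mouse 3. They were at 0.094 in KO mouse 3, so they lay above 0 in the CV and KO mice where the members were lowest. R47H mouse 2, CV mouse 3 and KO mouse 3 were the lowest of their groups for 60, 64 and 60 of the 84 members, beside 33.8%, 37.2% and 32.6% of all genes tested. In KO mice the female was the highest of 3 for 69 members and the lowest for 0, beside 41.1% and 30.8% of all genes tested.

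**Figure D3:**
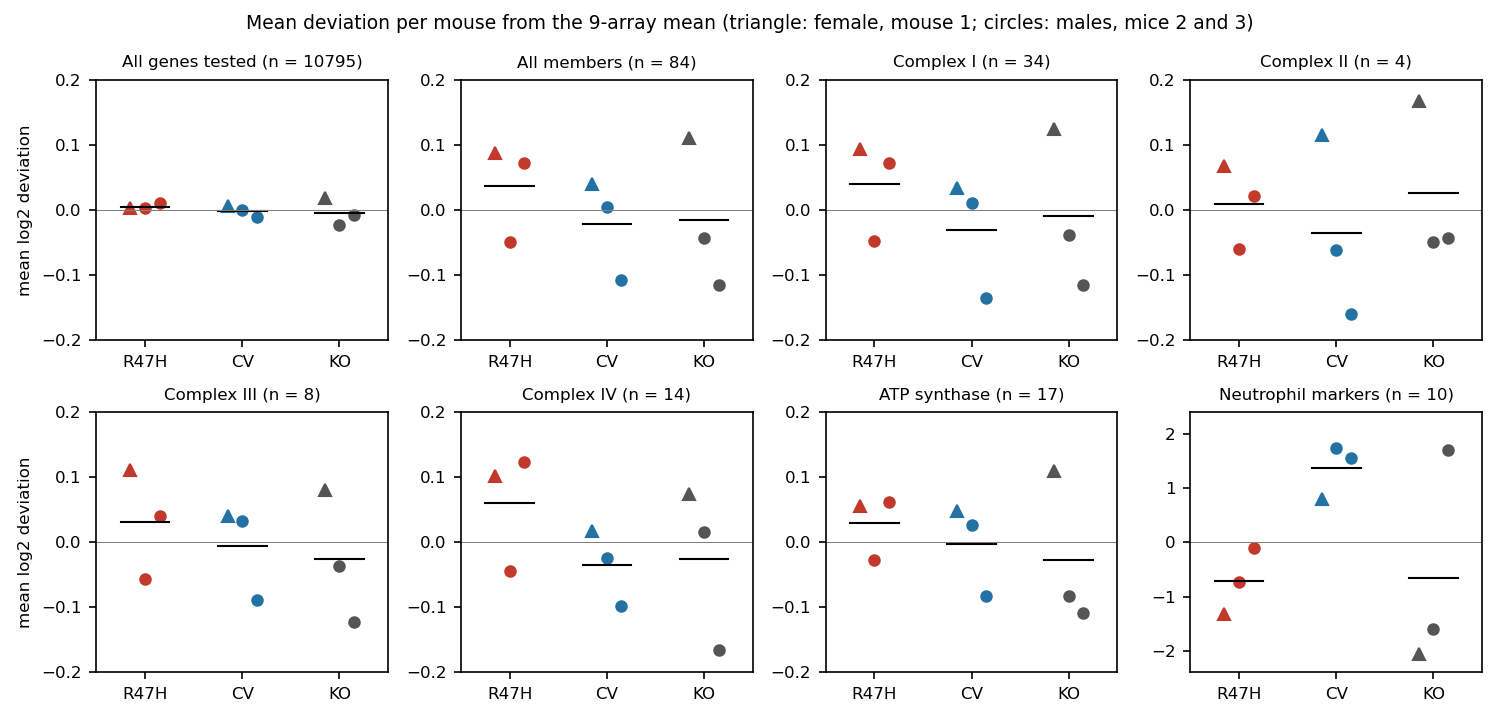
Mean log2 deviation per mouse from the 9-array mean, for all genes tested, for the members, for each complex and for 10 neutrophil markers, with R47H, CV and KO from left to right. Triangles are females and circles males, bars are group means, and the neutrophil panel has its own wider axis. All genes stay near 0, where similar array medians largely hold them. The members spread from 0.11 down to -0.11, and in CV and KO the members are lowest in mouse 3. CV mouse 2, the highest in neutrophil markers, lies at 0.0046 in the members, while R47H mouse 2 and KO mouse 2 are below 0 in both. KO mouse 1, the lowest in neutrophil markers, is the highest in the members. CV mouse 3 and KO mouse 3 are above 0 in neutrophil markers and lowest in the members. R47H mice 1 and 3 lie below 0 in neutrophil markers and above 0 in the members, and CV mouse 1 above 0 in both. A relation across mice was not tested.

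Sex was balanced over genotypes, and the female minus male difference was fitted in the same model. It lay above 0 for 80 of 84 members, with a median of 0.109 on the log2 scale, beside 54% of all genes tested and a median of 0.009. On the lists of related genes described below, 8 of 8 oxidant defence genes (median 0.117) and 10 of 11 carriers (0.115) lay above 0. So did 14 of 16 genes of the tricarboxylic acid cycle (0.061) and 12 of 13 of fatty acid oxidation (0.048). Assembly factors had 22 of 35 above 0, other subunits and carriers 11 of 14, regulators 8 of 20 and mitochondrially encoded subunits 0 of 2. None of the members was called in limma (smallest adjusted p = 0.187), beside 0.0648% of all genes tested. At an unadjusted p under 0.05 there were 18 members, all with positive differences, beside 7.45% of all genes with positive differences. The median by complex was 0.134 for I, 0.169 for II, 0.119 for III, 0.061 for IV and 0.106 for ATP synthase, and the 4 members below 0 were Ndufv2, Cox4i2, Cox7a1 and Ndufaf4. The female lay above both males in all 3 genotypes for 20 members (23.8%), beside 8.28% of all genes tested. Each female is also mouse 1 of its group, so sex and whatever else mouse number 1 stands for cannot be told apart.

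Cox6a2 had the smallest p of this comparison, with means of 9.90 in females and 9.45 in males (difference 0.44, limma adjusted p = 0.187). Sdha followed, with means of 9.08 in females and 8.82 in males (0.25, limma adjusted p = 0.23). Ndufb9, an accessory subunit of complex I, averaged 9.26 in females and 8.97 in males (0.29, limma adjusted p = 0.233). Cox7a2l averaged 10.92 in females and 10.66 in males (0.26, limma adjusted p = 0.293). These 4 were chosen after their values were seen, and in each the female was above both males in all 3 genotypes. The 3 X-linked members, Ndufa1, Ndufb11 and Cox7b, had differences of 0.083 to 0.16 (median 0.13), beside a median of 0.108 for the 81 tested autosomal members.

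The females also had the lowest neutrophil marker score of each genotype. The mean deviation of 10 tested neutrophil markers was -1.32, -0.73 and -0.11 in R47H mice 1 to 3, 0.80, 1.75 and 1.55 in CV mice, and -2.06, -1.59 and 1.71 in KO mice. With that score as a covariate the median female minus male difference over members was 0.074, with 71 of 84 above 0. Over single removals of a mouse it ran from 0.080 (without KO mouse 1, 75 above 0) to 0.15 (without R47H mouse 1, 79 above 0). The females were 3 in number, and 81 of 84 intervals of the difference lay within 1.41-fold.

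**Figure D4:**
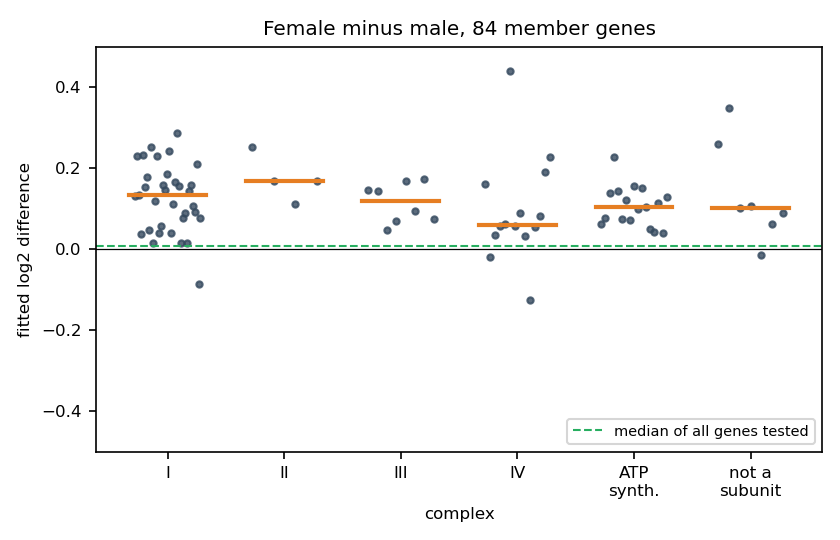
Fitted female minus male log2 differences of the 84 tested members by complex, with 3 females and 6 males over the 3 genotypes. Points are genes, orange bars the median of each complex, and the dashed line the median of all genes tested (0.009). The points lie above 0 for 80 members, and Cox6a2 is the highest at 0.44.

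Genes that serve the same pathway outside the symbol rule were described by 8 lists, and 1 of their genes was called. Among 35 tested assembly factors the medians were 0.053 for R47H minus KO, -0.032 for CV minus KO and 0.068 for R47H minus CV, with 0 called. Tmem126b, which assembles the membrane arm of complex I, was at 0.36 ± 0.08 for R47H minus CV (limma adjusted p = 0.106) and -0.22 for CV minus KO. Surf1, which assembles complex IV, was at 0.27 for R47H minus KO (limma adjusted p = 0.683), and Cox17, its copper chaperone, at 0.31 for CV minus KO (adjusted p = 0.294).

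Among 14 tested subunits and carriers outside the rule, 11 lay below 0 for CV minus KO (median -0.088), with 0 called. Cyc1, the cytochrome c1 of complex III, was at 0.29 ± 0.09 for R47H minus CV (limma adjusted p = 0.251) and -0.23 ± 0.09 for CV minus KO (adjusted p = 0.307). Coq9, which helps make ubiquinone, was at -0.23 for CV minus KO (limma adjusted p = 0.261). Of the mitochondrial DNA, only ND3 and COX2 had single-symbol probe sets, with differences of 0.15 and 0.16 for R47H minus KO, 0.13 and 0.18 for CV minus KO, and 0.02 and -0.01 for R47H minus CV, none called.

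Among 20 tested regulators the medians were 0.037, 0.035 and -0.014 for R47H minus KO, CV minus KO and R47H minus CV, with 0 called. Hif1a, the factor that favours glycolysis under low oxygen, was at 0.28 ± 0.07 for R47H minus CV (limma adjusted p = 0.178) and -0.24 ± 0.07 for CV minus KO (adjusted p = 0.208). Tfb2m, a mitochondrial transcription factor, was at 0.23 for R47H minus KO (limma adjusted p = 0.837). The 16 tested genes of the tricarboxylic acid cycle had medians of 0.007, -0.017 and 0.057 in the same order, with 0 called, and Pdhb, a pyruvate dehydrogenase subunit, was at 0.25 for R47H minus KO and 0.26 for R47H minus CV. The 11 tested carriers had medians of -0.004, -0.16 and 0.12 and the 8 tested oxidant defence genes 0.046, -0.068 and 0.090, with 0 called in each list. Slc25a4, an ADP/ATP carrier, was at 0.24 for R47H minus CV (limma adjusted p = 0.207), and Txnrd2, a mitochondrial thioredoxin reductase, at -0.27 for CV minus KO (adjusted p = 0.134).

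The called gene was Hadh, a dehydrogenase of mitochondrial fatty acid oxidation. It read 7.76, 7.55 and 7.57 in R47H, 7.38, 7.28 and 7.24 in CV, and 7.72, 7.71 and 7.60 in KO. Every CV mouse lay below every mouse of both other groups. Hadh fell by 0.38 on the log2 scale in CV relative to KO (SE 0.07, limma adjusted p = 0.0328), and R47H minus CV was 0.33 ± 0.07 (adjusted p = 0.0792). The call for CV minus KO was lost when any 1 of the 9 mice was left out, at differences of -0.41 to -0.34 and limma adjusted p of 0.0546 to 0.144. It was also lost without the sex term (limma adjusted p = 0.0852), with the 2 compared groups alone (0.12), in males alone (0.232) and with the neutrophil score as a covariate (0.357, at a difference of -0.34). Of the 13 genes on that list, all tested, 11 lay below 0 for CV minus KO (median -0.15), beside 55% of all genes tested, and 11 lay above 0 for R47H minus CV (median 0.14). Hadha, a subunit of the trifunctional protein of the same pathway, was at -0.21 for CV minus KO (limma adjusted p = 0.248). Without CV mouse 3 the median of the list was -0.099 for CV minus KO and 0.088 for R47H minus CV.

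Cell type markers differed in the same comparisons as the fatty acid oxidation genes. Of the 13 tested microglial markers, 11 also lay below 0 for CV minus KO (median -0.13), beside 55% of all genes tested. Of these, 7 were lower in every CV mouse, beside 8.05% of all genes tested. For R47H minus CV 11 lay above 0 (median 0.13), beside 53.4%, and 0 were called in either comparison. Their summed level (log2) was 15.09 to 15.12 in R47H, 14.98 to 15.02 in CV and 15.09 to 15.18 in KO. All 10 tested neutrophil markers lay above 0 for CV minus KO (median 2.29) with 0 called, as did 5 of 6 tested monocyte markers (median 0.92) with 1 called. For R47H minus CV, 9 of 10 neutrophil markers lay below 0 with 0 called, and 5 of 6 monocyte markers with 1 called. The monocyte markers, with Vcan below the floor, summed to 9.08 to 9.34 in R47H, 10.37 to 11.09 in CV and 9.15 to 10.71 in KO. All 8 tested oligodendrocyte markers (median -0.23) and all 6 astrocyte markers (-0.21) lay below 0 for CV minus KO. So did 7 of 8 border-associated macrophage markers (-0.33), with 0 called in these 3 lists. For R47H minus CV all markers of the 3 lists lay above 0, with 5, 1 and 1 called, beside 0.797% of all genes tested. With the neutrophil score as a covariate 11 of the 13 fatty acid oxidation genes lay below 0 for CV minus KO (median -0.11). The part of the other markers in these results was not tested.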

How the data were processed

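The authors deposited 1 log2 value per probe set and array (35556 probe sets, 9 arrays, from 1.31 to 13.9); the scale was read from the values, whose medians per array lay between 5.28 and 5.35. No label or header states the background correction, normalization, probe summary or genome build (not given in the sources used here), and array number limits the precision. Array correlations were 0.981 to 0.990. Gene symbols came from the platform annotation. The 21789 with 1 symbol were used, and 6 member probe sets with several symbols (for Cox7c, Ndufb4 and Ndufs5) were left out. The probe set with the highest mean stood for a gene. Of the 89 members, 17 had more than 1, and the signs of the genotype differences matched in 12, 16 and 14 of these for R47H minus KO, CV minus KO and R47H minus CV. Cross-hybridisation with paralogs or pseudogenes was not checked. Probe brightness differs between probe sets, so levels were compared only within a gene.

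Genes with a mean at or above 5.31 were tested (10795). Linear models used lmFit and eBayes of limma 3.58.1 (R 4.3.3; genotype and sex, all 9 arrays, 5 residual and 3.73 prior degrees of freedom, median residual SD 0.12), two-sided, with Benjamini-Hochberg adjustment within each comparison, and were first tested on simulated data. A score per mouse is the mean deviation of tested genes from their 9-array means. Alternatives were no sex term, mouse number as a block, the compared groups alone, no floor, mean of probe sets, quantile or median scaling, eBayes trend with robust, the neutrophil score, single removals and, chosen after seeing the data, males alone.

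Members, lists, complexes and the rule for named genes (in each complex, the 2 members with the smallest p per comparison and the one with the highest mean) were chosen with earlier results of these data known. Of each pathway list, called genes and up to 2 with the smallest p per comparison could be named. Mouse numbers were not taken as pairing: correlations of same-numbered mice ran from -0.040 to 0.36.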

Additional observations from a re-analysis of the deposited data

How the results depend on the processing

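No member was called under any of the 19 alternatives to the genotype comparisons, or the 15 that keep a sex term for female minus male. All medians over members moved by less than the spread between mice (SD 0.091). That spread is wider than each genotype median with all mice, so a median could change sign within it. The medians of CV minus KO and R47H minus CV did change sign under some alternatives. Beside the removals given above, other settings gave 0.024 to 0.083 for R47H minus KO, -0.033 to 0.030 for CV minus KO and -0.014 to 0.070 for R47H minus CV. Some alternatives cannot change a fitted difference, since sex is balanced over genotypes. These are no sex term, mouse number as a block, the compared groups alone, no floor and eBayes trend with robust. Removal of a mouse from the group not compared cannot change it either. Of 570 differences of named members under alternatives, those settings included, 562 kept their sign. The 8 that did not were all near 0: Sdhc for R47H minus KO, -0.045 with all mice, was 0.0167 without KO mouse 1, 0.00707 without R47H mouse 1 and 0.0309 in males alone. Sdha for R47H minus KO was 0.0474, 0.0261 and 0.0544 under the same settings. Sdhd for R47H minus CV, -0.052 with all mice, was 0.0482 without CV mouse 1 and 0.0320 in males alone. Over removals of 1 mouse these 3 ran from -0.068 to 0.017, from -0.070 to 0.047 and from -0.128 to 0.048. The cause was not tested.

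With mouse number as a replicate block in place of sex, 0 members were called, and calls over all genes tested were 11 in place of 9 for R47H minus KO, 136 in place of 131 for CV minus KO and 83 in place of 86 for R47H minus CV. Of the 9 mice, 5 correlated best with a mouse of their own number, so the numbers were not read as pairs. With 3 mice a group, differences under 1.19-fold were not resolved for most members, and signal below the floor left 5 members untested.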

Other observations

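Cox6a2 overlaps the end of Itgad, an integrin gene, in the RefSeq annotation (GRCm38.p6), and whether its probe set reads transcripts of that neighbour was not tested. The Itgad probe set lay below the floor in all mice, at 4.93, 4.94 and 5.09 in R47H, 5.02, 4.88 and 4.93 in CV, and 4.91, 4.93 and 4.89 in KO. Cox6a2 is known as an isoform of heart and skeletal muscle, and its probe set lay above the floor in every mouse.

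Gsr, which regenerates glutathione, had the largest difference on the oxidant defence list, at 0.57 ± 0.18 (SE) for CV minus KO (limma adjusted p = 0.223), and the 8 tested genes of that list, Gsr included, ran from -0.27 to 0.57 with a median of -0.068.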
